A study of Mus musculus with 6 samples.

Results

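This account covers 10 genes of the dual specificity MAP kinase phosphatase family in mouse brain after transient ischemia, chosen by exact symbol (Dusp1, Dusp2, Dusp4, Dusp5, Dusp6, Dusp7, Dusp8, Dusp10, Dusp14 and Dusp16). All 10 were found among the 56826 rows of the deposited count table, of which 23473 carry a gene symbol. Total RNA depleted of ribosomal RNA was sequenced from the brains of adult male C57BL/6 mice aged 8 to 9 weeks, in 2 groups of 3 libraries. All mice received 10% chloral hydrate (350 mg/kg) and neck surgery with body temperature held at 37 °C. In the ischemia/reperfusion group (I/R below) a filament closed the middle cerebral artery for 60 min and was then withdrawn, and the group is labelled as 1 h of ischemia and 6 h of reperfusion. In the sham group the vessels were exposed and no filament was inserted. The labels name neither the hemisphere nor the brain region taken, and do not say whether the 3 libraries of a group are separate mice. The p-values thus reflect only how far these libraries spread, which may be technical.

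MAP kinases (ERK, JNK and p38) are switched on when a threonine and a tyrosine in their activation loop are phosphorylated. The phosphatases described here remove both phosphates and so switch the kinase off. Several of their genes are themselves transcribed in response to MAP kinase signalling, which closes a negative feedback loop. In the brain such genes are known to respond to synaptic activity and to injury. Dusp1, Dusp2, Dusp4 and Dusp5 encode nuclear enzymes that are typically inducible. Dusp6 and Dusp7 encode cytoplasmic enzymes that prefer ERK, while Dusp8, Dusp10 and Dusp16 encode enzymes that prefer JNK and p38. Dusp14 encodes a small atypical enzyme that lacks the kinase-binding domain of the others.

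The promoter windows of 3 members are shown because they hold motifs through which signal-dependent transcription factors are known to bind. RefSeq (GRCm38.p6, the assembly also called mm10) gave a window of 250 bases before the start site for 9 of the 10 members, all but Dusp4. Capitals mark TGACG on either strand in Dusp1 and Dusp8, the core of the cAMP response element (CRE), and the CArG box of serum response factor in Dusp5. The windows are chr17:26508473-26508722 on the minus strand for Dusp1, chr7:142095285-142095534 on the minus strand for Dusp8 and chr19:53528895-53529144 on the plus strand for Dusp5.
Dusp1: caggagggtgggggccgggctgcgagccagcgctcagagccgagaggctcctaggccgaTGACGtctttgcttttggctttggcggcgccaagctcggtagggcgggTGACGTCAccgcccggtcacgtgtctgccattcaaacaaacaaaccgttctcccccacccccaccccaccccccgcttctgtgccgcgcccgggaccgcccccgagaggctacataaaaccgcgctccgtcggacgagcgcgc
Dusp8: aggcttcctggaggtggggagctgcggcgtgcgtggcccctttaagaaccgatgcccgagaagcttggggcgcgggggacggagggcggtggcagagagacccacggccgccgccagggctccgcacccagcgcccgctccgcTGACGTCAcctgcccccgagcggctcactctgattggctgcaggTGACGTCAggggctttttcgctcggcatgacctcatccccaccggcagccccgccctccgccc
Dusp5: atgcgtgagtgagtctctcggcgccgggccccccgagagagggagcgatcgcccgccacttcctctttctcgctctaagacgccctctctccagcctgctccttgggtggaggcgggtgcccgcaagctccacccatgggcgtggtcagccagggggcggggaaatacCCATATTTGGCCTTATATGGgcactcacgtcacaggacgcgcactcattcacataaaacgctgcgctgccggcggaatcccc

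The full palindromic CRE, TGACGTCA, occurred 2 times in the Dusp8 window, beginning 107 and 63 bases before the start, and 1 time in the Dusp1 window, 143 bases before it. It was found in 1.55% of the 32851 promoter windows of this length in the table, and 2 or more copies in 0.0304%. The Dusp5 window held 2 adjacent CArG boxes, beginning 82 and 72 bases before the start. That start is the one in RefSeq, just after 53529144, whereas the Dusp5 row of the counts begins further downstream, at 53529318. A CArG box was present in 1.47% of all windows, and 2 or more in 0.0183%. The core TGACG, which overlaps the full CRE, was also found 1 time each in the Dusp5 and Dusp16 windows and in 17.8% of all windows. The E-box CACGTG was found 1 time each in the Dusp1 and Dusp2 windows and in 6.02% of all windows. None of the 5 motifs searched, the AP-1 motif TGANTCA included (6.75% of windows), occurred in the windows of Dusp6, Dusp7, Dusp10 or Dusp14. These matches describe the letters of the windows, and binding was not measured.

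Depth was similar across libraries, at 45.4 to 49.7 times 1e6 counts, and no member was at 0 counts in any library. All 10 members passed the low-count filter and were tested. Each had a positive log2 fold change, from 0.20 for Dusp7 to 1.02 for Dusp1, with a median of 0.42 against 0.02 over all 40170 rows tested. A positive value was found for 53.1% of all rows and 44.2% of gene-symbol rows. The members were chosen with earlier results of these data known, which limits every such comparison with all rows. The threshold of 0.05 on the adjusted p over all rows was passed by 0 members (edgeR quasi-likelihood test, Benjamini-Hochberg), where 0.00249% of rows were called higher. Adjusted p-values of the members ran from 0.196 to 0.627. At an unadjusted p under 0.05 there were 5 of 10 members, Dusp1, Dusp4, Dusp8, Dusp14 and Dusp16, against 8.73% of all rows, and 6.39% of gene-symbol rows, in the same direction. DESeq2 also called 0 members past an adjusted p of 0.05 (against 1.10% of the rows it adjusted, higher) and had 6 at an unadjusted p under 0.05, against 7.36% of the rows it tested. In CPM on library totals, groups that did not overlap, with every I/R library above every sham library, were found for 4 members, Dusp1, Dusp4, Dusp8 and Dusp10, against 14.0% of all rows and 10.3% of gene-symbol rows. With the TMM factors used in the test, which correct library totals for differences in composition, there were 2, Dusp4 and Dusp8, against 10.8% of all rows, and the groups of Dusp1 and Dusp10 overlapped. In these bulk samples, more cells of a type and more RNA per cell cannot be told apart.

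**Figure D1:**
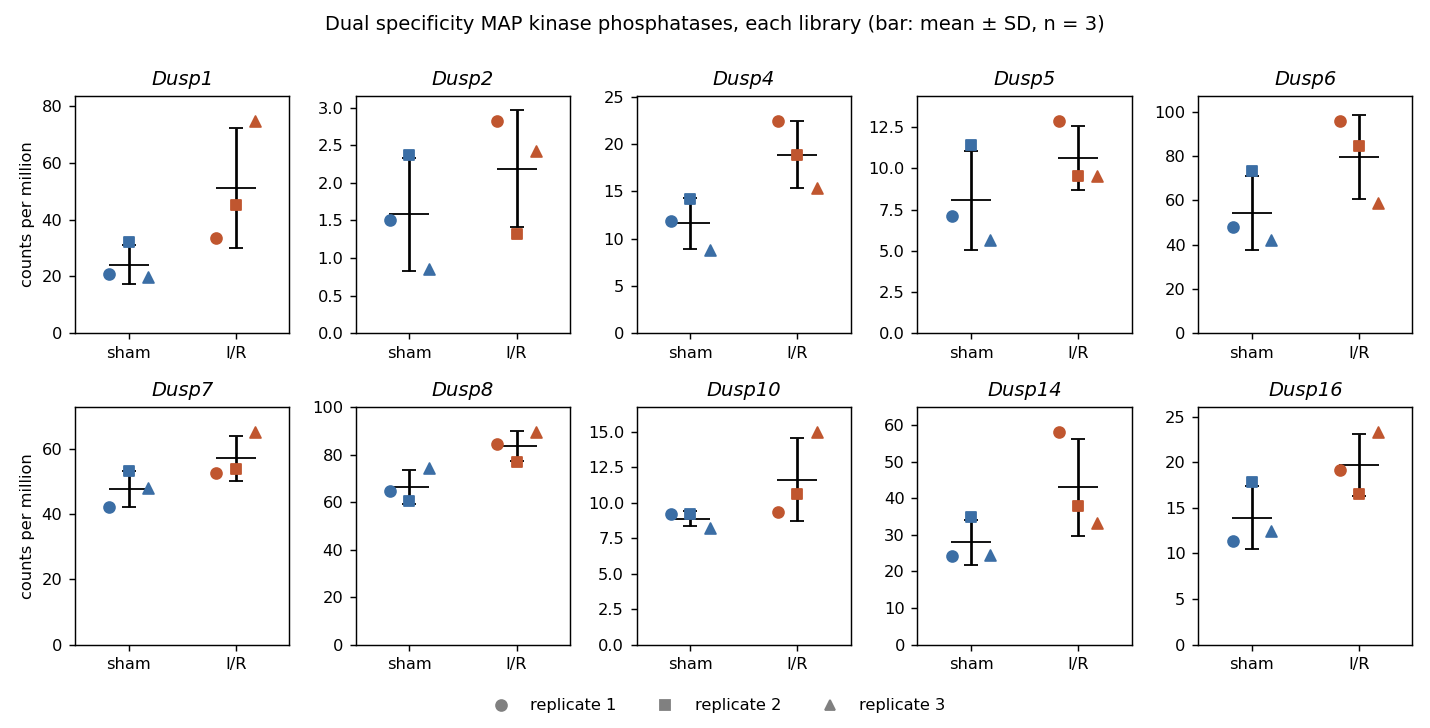
CPM (vertical axis from 0) of the 10 members in each library, with sham in blue and I/R in orange. Marker shapes give the replicate number, and bars give the mean and SD of 3 libraries. I/R means lie above sham means in all 10 panels, and on this scale the groups do not overlap for Dusp1, Dusp4, Dusp8 and Dusp10 (with TMM factors, for Dusp4 and Dusp8).

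Among the nuclear enzymes, Dusp1 had the largest difference. Dusp1, on chromosome 17 from 26505591 to 26508472 (mm10, minus strand), encodes a phosphatase that prefers p38 and JNK and is a classical immediate early gene. Its level was 20.8, 32.0 and 19.7 CPM (counts per 1e6 counts of the library) in sham replicates 1, 2 and 3. In I/R replicates 1, 2 and 3 it was 33.6, 45.3 and 74.6 CPM. In CPM all 3 I/R libraries were above all 3 sham libraries, but I/R replicate 1 exceeded sham replicate 2 by little, and with TMM factors it lay below it. I/R replicate 3 had 2.22 times the level of I/R replicate 1. Group means were 24.1 ± 6.79 and 51.2 ± 21.1 CPM (SD, n = 3 each). The log2 fold change was 1.02 ± 0.35 (SE), with an adjusted p of 0.272 (edgeR) and an unadjusted p of 0.0274. Without I/R replicate 3 the log2 fold change was 0.65. Dusp1 made up 8.07% to 10.4% of the summed CPM of the 10 members in sham, and 8.60%, 12.8% and 19.3% in I/R replicates 1, 2 and 3.

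Dusp4, on chromosome 8 from 34807610 to 34819894 (plus strand), encodes a nuclear phosphatase of ERK and JNK. It had 11.9, 14.2 and 8.84 CPM in sham, against 22.4, 18.8 and 15.4 CPM in I/R (replicates 1, 2 and 3 in this order, as for every member below). The lowest I/R library was again above the highest sham library. Its log2 fold change was 0.64 ± 0.19 (SE), with the smallest p among the members (unadjusted p = 0.00652, adjusted p = 0.196, edgeR). Leaving out each library in turn kept the unadjusted p of Dusp4 between 0.00177 and 0.0280, the only member for which it stayed under 0.05 in all 6 cases.

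The remaining nuclear enzymes had overlapping groups. Dusp5, an ERK-specific phosphatase on chromosome 19 from 53529318 to 53541322 (plus strand), had 7.12, 11.4 and 5.67 CPM in sham, against 12.9, 9.52 and 9.53 CPM in I/R. Sham replicate 2 lay above I/R replicates 2 and 3. The log2 fold change was 0.34 ± 0.25 (SE; adjusted p = 0.540, edgeR), and 0.68 without sham replicate 2, 0.13 without sham replicate 3 or 0.18 without I/R replicate 1. Dusp2, a phosphatase best known from activated lymphocytes and myeloid cells, lies on chromosome 2 from 127336159 to 127338377 (plus strand). It was the least abundant member, with 75, 114 and 42 counts in sham and 137, 61 and 110 counts in I/R. I/R replicate 2 lay below sham replicates 1 and 2, and the log2 fold change was 0.41 ± 0.38 (SE; adjusted p = 0.627, edgeR). This value was 0.83 without sham replicate 2, 0.10 without sham replicate 3, 0.18 without I/R replicate 1 and 0.66 without I/R replicate 2.

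Both cytoplasmic ERK phosphatases had overlapping groups. Dusp6, on chromosome 10 from 99263231 to 99267489 (plus strand), is a widely used readout of ERK activity. Its level was 47.7, 73.0 and 41.9 CPM in sham, against 95.7, 84.3 and 58.7 CPM in I/R. I/R replicate 3 was below sham replicate 2, while the other I/R libraries were above every sham library. The log2 fold change was 0.50 ± 0.26 (SE; adjusted p = 0.414, edgeR), and 0.78 without sham replicate 2, with an unadjusted p of 0.00328 and an adjusted p of 0.260. It was 0.33 without sham replicate 3 (unadjusted p = 0.237) and 0.34 without I/R replicate 1 (unadjusted p = 0.341, edgeR). Dusp7, a close relative of Dusp6 on chromosome 9 from 106368632 to 106375723 (plus strand), had 42.0, 53.2 and 47.8 CPM in sham, against 52.6, 53.6 and 65.0 CPM in I/R. Its difference was the smallest of the family, a log2 fold change of 0.20 ± 0.12 (SE; adjusted p = 0.432, edgeR). Without I/R replicate 3 it was 0.10, and without sham replicate 1 it was 0.11.

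The JNK and p38 phosphatases differed in their spread within groups. Dusp8, a gene with high expression in brain, lies on chromosome 7 from 142079487 to 142095284 (minus strand). It had 64.9, 60.3 and 74.2 CPM in sham, against 84.7, 77.1 and 89.5 CPM in I/R, and the groups did not overlap. Group means were 66.5 ± 7.08 and 83.8 ± 6.23 CPM (SD, n = 3 each), with a log2 fold change of 0.28 ± 0.10 (SE; unadjusted p = 0.0188, adjusted p = 0.246, edgeR). It was the only member whose lowest sham library was replicate 2. Its unadjusted p was 0.0736 without sham replicate 1, 0.0858 without sham replicate 2 and 0.0676 without I/R replicate 3 (edgeR). Without each of the other libraries it lay between 0.0122 and 0.0300.

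Dusp10, on chromosome 1 from 184034461 to 184075636 (plus strand), had 9.20, 9.18 and 8.25 CPM in sham, against 9.35, 10.6 and 15.0 CPM in I/R. In CPM the groups did not overlap, but I/R replicate 1 was above sham replicate 1 by only 0.151 CPM, and with TMM factors it lay below sham replicates 1 and 2. The log2 fold change was 0.33 ± 0.17 (SE; adjusted p = 0.369, edgeR) and 0.11 without I/R replicate 3. Dusp16, which prefers JNK, lies on chromosome 6 from 134715473 to 134792628 (minus strand). It had 11.4, 17.9 and 12.5 CPM in sham, against 19.2, 16.6 and 23.3 CPM in I/R. Only I/R replicate 2 fell within the sham range, and the log2 fold change was 0.44 ± 0.18 (SE; unadjusted p = 0.0350, adjusted p = 0.292, edgeR). It was 0.67 without sham replicate 2, 0.31 without sham replicate 1 (unadjusted p = 0.143) and 0.30 without I/R replicate 3 (unadjusted p = 0.144, edgeR).

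Dusp14, the atypical member, lies on chromosome 11 from 84048045 to 84068357 (minus strand). It had 24.3, 34.9 and 24.5 CPM in sham, against 58.0, 37.7 and 33.1 CPM in I/R. I/R replicate 1 stood high, and I/R replicate 3 was below sham replicate 2. The log2 fold change was 0.56 ± 0.24 (SE; unadjusted p = 0.0443, adjusted p = 0.309, edgeR) and 0.28 without I/R replicate 1.

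**Figure D2:**
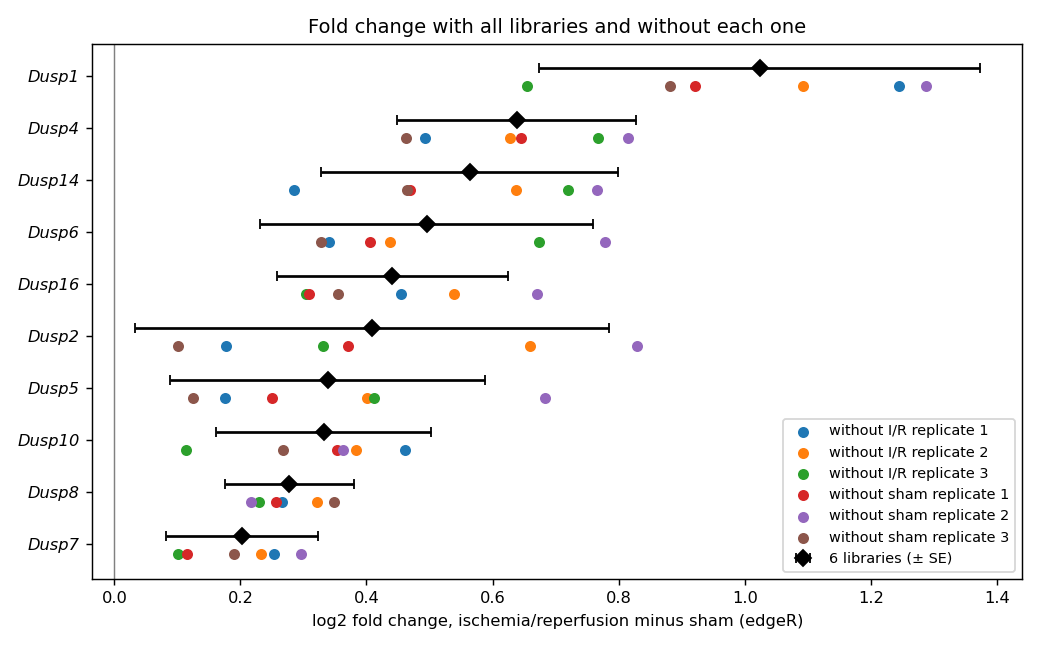
Log2 fold change of each member, I/R minus sham, from edgeR (horizontal axis), ordered by size. Diamonds with bars give the value from all 6 libraries ± SE, and coloured points give the value without 1 library. All points lie above 0, and for 8 members the value without sham replicate 2 is the highest of the 6.

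The members differed in which libraries were high. Within sham, replicate 2 had the highest level of 8 members, all but Dusp8 and Dusp10, and with TMM factors of Dusp10 too. It exceeded the mean of the other sham libraries by 58.0% for Dusp1, 62.9% for Dusp6 and 78.6% for Dusp5, and by 18.4% for Dusp7. Without sham replicate 2 the members at an unadjusted p under 0.05 numbered 8 in place of 5, against 7.08% of all rows tested. Those whose groups did not overlap in CPM numbered 9 in place of 4, against 19.8% of rows. Without sham replicate 1 only 1 member, Dusp4, had an unadjusted p under 0.05 (5.89% of rows), without sham replicate 3 there were 2 (6.57%), and without I/R replicate 2 there were 3 (7.93%).

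Within I/R the members divided evenly by their highest library. Replicate 1 was highest for Dusp2, Dusp4, Dusp5, Dusp6 and Dusp14, and replicate 3 for Dusp1, Dusp7, Dusp8, Dusp10 and Dusp16. The level in replicate 3 was 0.613 times that in replicate 1 for Dusp6 and 0.571 times for Dusp14, against 2.22 times for Dusp1 and 1.60 times for Dusp10. For the other members this ratio was less extreme. It was 0.685 for Dusp4, 0.741 for Dusp5, 0.858 for Dusp2, 1.06 for Dusp8, 1.21 for Dusp16 and 1.24 for Dusp7. Replicate 3 also had the highest sums of myelin markers (9505 CPM, against 3706 to 5423 CPM in the other 5 libraries) and of choroid plexus markers (1202 CPM, against 17.8 to 758.5 CPM). It had the lowest sum of neuron markers, 3580 CPM, against 3793 to 4177 CPM. The part of these markers in the levels of the members was not tested.

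**Figure D3:**
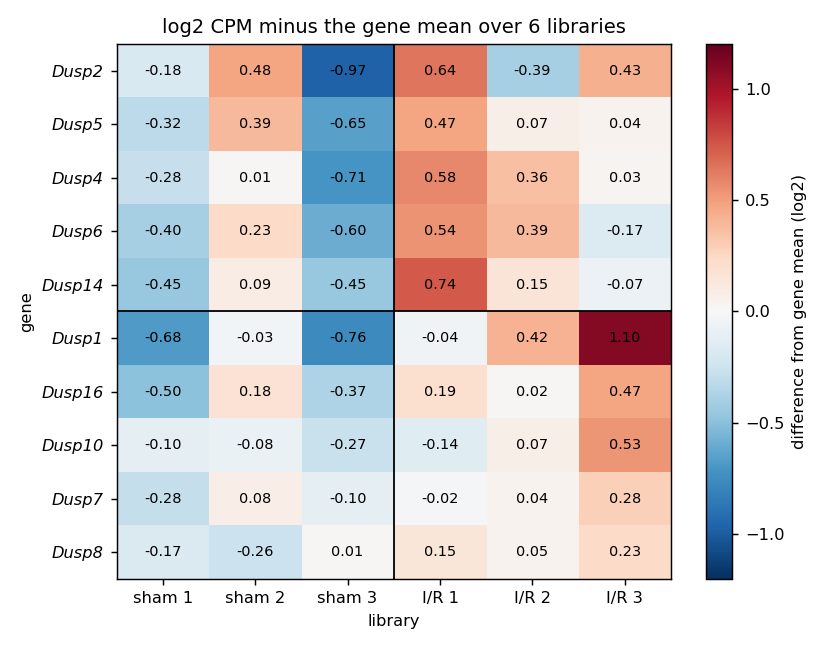
Log2 CPM (with TMM factors) of each member minus its mean over the 6 libraries, by library (columns) and gene (rows), with red above and blue below the gene's mean. The upper 5 genes are those highest in I/R replicate 1 and the lower 5 those highest in I/R replicate 3. Dusp1 reached 1.10 in I/R replicate 3 and −0.04 in I/R replicate 1.

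Levels between members were compared as RPKM, the authors' counts scaled to both row length and library total. By mean level in sham the most abundant were Dusp6 (19.4 ± 5.91 RPKM) and Dusp14 (19.3 ± 4.21), whose libraries overlapped. The lowest Dusp6 library, at 15.0 RPKM, was below the highest of Dusp7 (16.6), Dusp8 (15.4) and Dusp1 (16.5). Dusp7 (14.8 ± 1.74), Dusp8 (13.8 ± 1.47) and Dusp1 (12.4 ± 3.50) followed, and the libraries of these 3 genes overlapped (SD, n = 3 each). Dusp5 and Dusp4 came next, at 6.99 ± 2.59 and 4.80 ± 1.11 RPKM. Dusp10 had 3.27 ± 0.201 RPKM, Dusp16 2.73 ± 0.682 and Dusp2 0.976 ± 0.468. Dusp5 and Dusp4 overlapped, as did Dusp10 and Dusp16, while every library of Dusp2 was below those of Dusp16. After I/R the order was the same except that Dusp14 (29.8 ± 9.18 RPKM) preceded Dusp6 (28.4 ± 6.78) and Dusp1 (26.4 ± 10.9) stood in the third place, above Dusp7 (17.8 ± 2.14) and Dusp8 (17.4 ± 1.29). The libraries of Dusp1, Dusp7 and Dusp8 overlapped in I/R as well, and so did those of Dusp14, Dusp6 and Dusp1.

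Other transcribed rows lie within the spans of the members. No cDNA clone row on the same strand reached a mean of 0.5 CPM over the 6 libraries, so the rows that follow were chosen after their values were seen. Inside Dusp10, the clone row fantom3_A530072D20 (chromosome 1, 184046914 to 184048801) had 9, 8 and 6 counts in sham and 22, 19 and 23 counts in I/R, without overlap. Its log2 fold change was 1.47 ± 0.43 (SE; unadjusted p = 0.00510, adjusted p = 0.186, edgeR). The neighbouring clone row fantom3_A530001E20 (184044414 to 184046782) had 11, 14 and 11 counts in sham and 13, 26 and 35 in I/R, with overlap. These rows hold few counts next to the 403 to 680 of the Dusp10 row. On the strand opposite to Dusp5, the clone row fantom3_A630079P03 (chromosome 19, 53528609 to 53529655) covers the beginning of the gene. It had 4.01, 6.61 and 3.83 CPM in sham, against 7.85, 7.39 and 6.69 CPM in I/R, without overlap in CPM but with overlap under TMM factors. Its log2 fold change was 0.54 ± 0.21 (SE; unadjusted p = 0.0244, adjusted p = 0.262, edgeR). The Dusp5 row begins at 53529318, so the rows overlap only in part. Whether the authors counted by strand is not stated, and without strand the reads in the shared stretch cannot be told apart. Opposite to Dusp4, the clone rows fantom3_6330508J08, whose span reaches far beyond the gene, and fantom3_D630044N08 had overlapping groups. Their log2 fold changes were 0.10 ± 0.15 and 0.65 ± 0.53 (SE; unadjusted p = 0.495 and 0.250, edgeR).

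Markers of other cells that moved with the groups were astrocyte, microglia, and neutrophil and monocyte markers. The 8 astrocyte markers summed to 5471 to 5513 CPM in sham, against 4783 to 5256 CPM in I/R. Sums of the 8 microglia markers were 179.7 to 192.7 CPM and 194.7 to 236.4 CPM, which overlapped with TMM factors. For the 8 neutrophil and monocyte markers found of 9 they were 14.3 to 17.7 CPM and 19.6 to 30.6 CPM. None of these 24 genes was at 0 counts in any library. Itgam was the largest part of the neutrophil and monocyte sums, with 7.53 to 9.50 CPM in sham and 9.66 to 14.0 CPM in I/R. Its groups overlapped with TMM factors. Log2 fold changes of the 7 tested markers of this list ran from 0.03 for Ccr2 to 1.26 for S100a9. Ly6c2 did not pass the low-count filter. The 7 lymphocyte markers found of 8 summed to 0.603 to 2.33 CPM in sham, against 1.43 to 4.59 CPM in I/R, with overlap. Most of each sum was Cd4, with 0.332 to 2.23 CPM in sham and 0.889 to 4.20 CPM in I/R. Cd4 alone of the 7 passed the low-count filter, so the sums describe mainly this gene. Cd3e, Cd3g, Cd8a and Ms4a1 each had 0 counts in at least 1 library. Endothelial and neuron marker sums overlapped between the groups. The part of these markers in the levels of the members was not tested.

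The other genes of the pathway were described from lists drawn up by function, with earlier results of these data known. None passed an adjusted p of 0.05 with edgeR. Of the 16642 gene-symbol rows tested, 44.2% had positive values. At an unadjusted p under 0.05 (edgeR), 1064 of these rows were higher and 1449 lower. These shares are to be read beside every list below. The 14 tested of 16 other dual specificity phosphatases, most of them atypical, had 9 positive values and a median log2 fold change of 0.03. At an unadjusted p under 0.05 there was 1 higher and 1 lower. Dusp11, an RNA phosphatase, averaged 27.3 ± 1.82 CPM in sham, against 35.5 ± 4.78 CPM in I/R (SD, n = 3 each). Its log2 fold change was 0.32 ± 0.12 (SE). Dusp28 had 26.5 ± 1.92 and 23.1 ± 1.76 CPM, and Dusp27 0.781 ± 0.317 and 1.14 ± 0.249 CPM. Dusp9, the remaining typical MAP kinase phosphatase, had 1.03 ± 0.296 and 1.24 ± 0.226 CPM. Unlike the 10 members, whose values were all positive, this list lay on both sides of 0, though the difference between the lists was not tested.

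Phosphatases of other families that act on MAP kinases had 3 positive and 5 negative values and a median of −0.08. Ptpn5, a tyrosine phosphatase enriched in striatal neurons, had 54.2 ± 10.6 CPM in sham, against 71.5 ± 12.1 CPM in I/R (SD, n = 3 each; unadjusted p = 0.0427, adjusted p = 0.306, edgeR). Ptprr had 18.6 ± 0.931 and 16.3 ± 1.58 CPM, and Ppm1a 197.02 ± 13.9 and 176.9 ± 21.1 CPM.

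The MAP kinase genes and the genes of the kinases above them had mostly negative values, as did the gene-symbol rows tested (9282 of 16642). Of 10 MAP kinase genes 3 had positive and 7 negative values, with a median log2 fold change of −0.06, and 1 had an unadjusted p under 0.05 in each direction. Mapk11, a p38 kinase, had 23.2 ± 2.38 and 29.0 ± 1.56 CPM (SD, n = 3 each). Mapk13, another p38 kinase, had 0.416 ± 0.106 and 0.187 ± 0.0840 CPM. Of 7 MAP kinase kinase genes 2 had positive values, with a median of −0.12, and 0 had an unadjusted p under 0.05. The smallest p-values were those of Map2k6 (12.6 ± 0.727 and 9.88 ± 2.79 CPM), Map2k4 (140.4 ± 5.52 and 130.1 ± 8.25 CPM) and Map2k5 (19.6 ± 0.690 and 18.4 ± 1.44 CPM).

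Feedback inhibitors that act higher in the ERK pathway, the Sprouty and Spred proteins and others, had 8 of 12 positive values and a median log2 fold change of 0.14. Spred3 had 11.9, 11.3 and 14.1 CPM in sham, against 18.2, 19.1 and 16.8 CPM in I/R, without overlap. Its log2 fold change was 0.48 ± 0.13 (SE; unadjusted p = 0.00240, adjusted p = 0.165, edgeR). Spry2 had 30.1 ± 1.19 and 38.4 ± 10.6 CPM, with groups that did not overlap in CPM but did with TMM factors, and Lrig1, an inhibitor of receptor tyrosine kinases, 71.9 ± 4.09 and 55.8 ± 16.7 CPM (SD, n = 3 each).

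Transcripts known to respond to ERK had 14 of 16 positive values and a median log2 fold change of 0.30. Of these, 3 were higher at an unadjusted p under 0.05 (6.39% of gene-symbol rows, edgeR). Spred1 and Spry4 were counted both in this list and in that of the feedback inhibitors. Egr2, a zinc finger transcription factor, had 1.03, 2.33 and 1.33 CPM in sham, against 4.80, 5.46 and 5.35 CPM in I/R, without overlap. Its log2 fold change was 1.68 ± 0.27 (SE; adjusted p = 0.123 with edgeR and 4.1e-06 with DESeq2). Phlda1 had 4.66 ± 0.685 and 9.13 ± 1.38 CPM (SD, n = 3 each; adjusted p = 0.123 with edgeR and 0.000673 with DESeq2), and Egr3 10.5 ± 0.861 and 14.1 ± 1.26 CPM. Among 15 nuclear targets of MAP kinases 10 had positive values, with a median of 0.13. Jun, the target of JNK, had 51.4 ± 7.66 and 125.5 ± 37.8 CPM (adjusted p = 0.148 with edgeR and 1.3e-06 with DESeq2), Jund 137.1 ± 15.6 and 195.5 ± 28.7 CPM, and Elk1, a partner of serum response factor, 44.7 ± 4.94 and 36.7 ± 1.96 CPM.

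**Figure D4:**
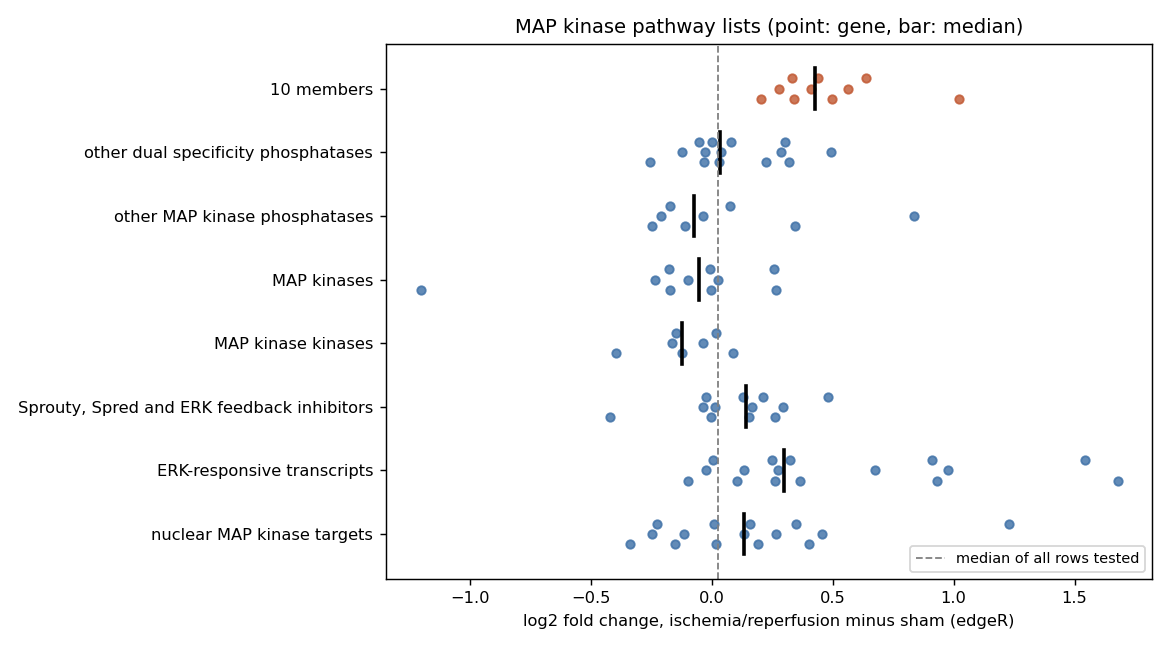
Log2 fold change of each tested gene (point) in 8 lists of the MAP kinase pathway, I/R minus sham (horizontal axis), with the list median as a bar. The dashed line is the median of all rows tested, 0.02. The median was 0.42 for the 10 members, 0.30 for ERK-responsive transcripts and between −0.12 and 0.14 for the other lists. Spred1 and Spry4 appear both among the feedback inhibitors and among the ERK-responsive transcripts.

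The transcripts most like 4 of the members across the 6 libraries were found by the root mean square difference of mean-centred log2 CPM, among 14442 gene-symbol rows with a mean of at least 1 CPM. For Dusp1 these were Btg2, an antiproliferative early gene, Egr4, a zinc finger transcription factor, and Zfp36, an mRNA-destabilising protein, with differences of 0.20, 0.20 and 0.23 on the log2 scale. Btg2 had 27.4, 35.4 and 19.3 CPM in sham, against 42.9, 40.2 and 84.0 CPM in I/R, and like Dusp1 was highest in I/R replicate 3. Dusp6 was closest to Cd74 and H2-K1, genes of antigen presentation, and to Fam132b (0.11, 0.13 and 0.14). H2-K1 had 25.5, 33.2 and 20.0 CPM in sham, against 40.6, 34.0 and 28.9 CPM in I/R, with replicate 1 the highest, as for Dusp6. The rows closest to Dusp5 were Mir29a, Ccl6 and Ptges (0.08, 0.09 and 0.09), and those closest to Dusp2 were Gimap5, Tubb6 and Upp1 (0.15, 0.16 and 0.16). This measure describes likeness over 6 libraries and shows nothing of shared control.

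Of the 10 members, 9 had in the authors' deposited table a q-value under 0.05 and a higher mean RPKM after I/R, against 14.7% of its rows. The member without was Dusp2, with a q-value of 0.0879 in the authors' deposited table. The authors' deposited table gave log2 fold changes from 0.26 for Dusp7 to 1.08 for Dusp1. Which test gave these q-values is not stated in the sources at hand.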

How the data were processed

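Brain RNA of 6 libraries was analysed from the deposited table. Per the labels' protocols, ribosomal RNA was removed and NEBNext Ultra libraries were sequenced as read pairs. Per the submitters' processing notes the build was mm10. Not given in the sources used here are aligner, counter, annotation and strand setting. Counts, as deposited, are unnormalised whole numbers. RPKM values, made by the authors, matched counts scaled to row length (kilobases) and to a library total of 1e6 in 100% of cases (to 0.001, relative). A second deposited table holds the authors' mean RPKM per group with its log2 fold change, p-values and q-values. The other deposited value, row length, was taken unchanged.

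The main test used edgeR 4.0.16 in R 4.3.3 with TMM factors, filterByExpr and the robust quasi-likelihood test, two-sided, adjusted over 40170 rows (Benjamini-Hochberg, 0.05). The SE is the log2 fold change divided by the square root of F. CPM used column totals, and where stated these times the TMM factors. Log2 CPM used a prior count of 2. DESeq2 1.42.0, limma-voom (limma 3.58.1), other factors and filters, gene-symbol rows alone, no robust estimation, a replicate block and leaving out each library were alternatives. Libraries of 1 group differed by more than sampling noise (chi-square per degree of freedom 7.73 to 27.5). A floor of 3 counts was 0.0604 to 0.0660 CPM, and covers counting error only.

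The members and lists were chosen with earlier results of these data known. Named genes were all members, up to 3 genes with the smallest p per pathway list, the 3 rows most like Dusp1, Dusp2, Dusp5 and Dusp6, and same-strand clone rows of at least 0.5 CPM (there were none). Dusp9 and the clone rows were named after their values were seen. Some genes that this rule or a marker list would name are not reported here. Promoter windows and shares came from the RefSeq table of GRCm38.p6.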

Additional observations from a re-analysis of the deposited data

How the results depend on the processing

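All 10 members kept a positive log2 fold change and an adjusted p above 0.05 in the 15 alternatives run (150 values, with a lowest adjusted p of 0.0676, that of Dusp4 with DESeq2). Members at an unadjusted p under 0.05 numbered 5 with edgeR, against 8.73% of all rows in the higher direction. They numbered 3 with no low-count filter and 6 with upper-quartile factors, limma-voom or no robust estimation. The share of all rows at this p was not computed for those settings. When 1 library was left out the members ran from 1 to 8, against 5.89% to 11.1% of all rows in the higher direction. Members whose groups did not overlap numbered 4 in CPM, 2 in CPM with TMM factors (chosen after seeing the data), and 4 to 9 without 1 library, against 18.5% to 24.6% of all rows higher in those sets of 5 libraries. Rows called over the whole table numbered 1, and 2 with upper-quartile factors, 77 with no low-count filter, 0 with a mean of at least 1 CPM, 0 with gene-symbol rows alone, 584 with DESeq2, 4 with limma-voom and 4 without robust estimation. They ran from 0 to 1057 without 1 library, 1057 being the number without I/R replicate 1, where 0 members were called. The cause of these differences was not tested. With the replicate number as a block 0 rows were called, and 6 members had an unadjusted p under 0.05. The share of all rows at this p was not computed for the block either. Same-numbered libraries had correlations of −0.07 to 0.11 between their deviations from the group means, so the numbers were not taken to pair them, and not every library correlated best with its own number. Dusp2 had the fewest counts, 42 to 137 per library.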
